A study of Homo sapiens with 24 samples.

Results

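The transcripts of 8 genes of the caspase cascade were followed through a knockdown experiment: the caspases CASP2, CASP6, CASP8 and CASP9, the adaptor APAF1, the inhibitors of apoptosis XIAP and BIRC2, and their antagonist DIABLO. They were taken by symbol, through their Ensembl identifiers, from the 60675 genes counted, and all 8 were found and passed the filter on low counts in every comparison. ACHN, a renal cancer line labelled ccRCC, and HK2, an immortalized line labelled human kidney, each carried a control hairpin (shNC), a hairpin against KDM5C (shKDM5C), a hairpin against YY1 (shYY1), or both knockdowns (Dsh). Each of the 8 groups held 3 RNA-seq libraries, 24 in all. According to the study's methods the lines were made with lentiviral hairpins and puromycin selection, without stating which of the listed hairpins was sequenced, and the double-knockdown lines were made by adding a GFP-labelled KDM5C hairpin to YY1-depleted cells, so the double knockdown also carried a further vector. The comparison asked how loss of the H3K4 demethylase KDM5C, of the DNA-binding factor YY1, or of both changed these transcripts.

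Caspases are cysteine proteases made as inactive precursors. Initiator caspases are switched on when adaptor platforms bring their precursors together: CASP8 at death receptors, CASP9 on the apoptosome that APAF1 forms once cytochrome c leaves the mitochondria, and CASP2 on the PIDDosome. They cleave effector caspases, inhibitor of apoptosis proteins (IAPs) hold the cascade back, and DIABLO, released from mitochondria, displaces the IAPs. Because this control acts on proteins, a transcript level is not a measure of caspase activity.

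Library totals ran from 15926561 to 24272298 counts. Levels are given as CPM, each library's counts scaled to a common total, with 1 normalization over all 24 libraries. The labels do not say that the libraries of a group were separate cultures. In bulk RNA, fewer cells that express a gene and less RNA per cell cannot be told apart. KDM5C was lower in ACHN shKDM5C cells (log2 change -0.73, SE 0.0472, adjusted p = 1.12e-12) and in HK2 shKDM5C cells (-1.74, SE 0.228, adjusted p = 0.0184). YY1 was lower in ACHN shYY1 cells (-0.88, SE 0.0388, adjusted p = 1.65e-19) and in HK2 shYY1 cells (-1.70, SE 0.0557, adjusted p = 2.21e-15). Both were lower in the double-knockdown cells of each line, by 0.80 and 0.51 on the log2 scale (KDM5C, YY1) in ACHN and by 1.49 each in HK2. Against HK2 shYY1 cells, YY1 was slightly higher in HK2 double-knockdown cells (0.22), and likewise in ACHN (0.35). KDM5C was higher in shYY1 than in shNC cells, by 0.34 in ACHN (adjusted p = 1.14e-08) and 0.35 in HK2 (adjusted p = 1.54e-05). Renal epithelial markers were present, with 6 or 7 of 7 at or above 1 CPM in each group, whereas of 6 proximal tubule markers GGT1 alone reached 1 CPM. The summed level of 3 fibroblast markers was 581 to 633 CPM in ACHN shNC, 74.0 to 78.5 CPM with shKDM5C, 189 to 196 CPM with shYY1 and 135 to 151 CPM in ACHN double-knockdown cells, mostly from COL1A1. The summed renal epithelial markers went from 2221 to 2254 CPM in ACHN shNC to 1524 to 1679 CPM in the double knockdown. They were 2518 to 2617 CPM with shKDM5C and 2639 to 2723 CPM with shYY1. Between ACHN shNC and the double knockdown, mean KRT8 fell (1404 to 698 CPM) whereas PAX8 rose (541 to 714 CPM). HK2 sums went from 3287 to 3391 CPM in shNC to 1776 to 1887 CPM in the double knockdown. The part of these marker shifts in the results was not tested.

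HK2 shKDM5C replicate 1 stood apart. Mitochondrial transcripts took 11.8% of its counts and 4.75% to 7.4% of those of the other 23 libraries, and its KDM5C level was 35.8 CPM beside 67.9 and 67.0 CPM in the other replicates. Results that rest on this group are therefore given with and without it. A second division ran through the ACHN libraries. RPSAP15, a ribosomal protein pseudogene, was at 101 to 157 CPM in the 9 shNC, shKDM5C and shYY1 libraries, at 2.23 to 4.26 CPM in the 3 double-knockdown libraries, and at 1.06 to 3.35 CPM in the 12 HK2 libraries. ENSG00000274804, on an unplaced scaffold, showed the opposite pattern, from 0 to 0.859 CPM in the 9 libraries, and from 104 to 135 CPM in the ACHN double knockdown. These features were picked after their values were seen. Within ACHN this division and the double knockdown cannot be told apart. This bears on every result that uses the ACHN double-knockdown libraries, and DIABLO follows the division itself.

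The YY1 core motif CCATNTT was searched on both strands in the RefSeq promoter windows (GRCh38.p14, 250 bases before to 50 after each start, 18 windows covering all 8 genes), because YY1 is a knocked-down factor. It occurred in 1 window each of CASP8, XIAP and DIABLO, and in 15.6% of all 35116 windows. In CASP8 and XIAP the match was on the reverse strand and extended to the longer form GCCATNTT, which contains the core and occurred in 6.58% of windows. The surroundings are printed along the gene strand with the 7 motif bases in capitals, at chr2:201260296-201260324 (plus strand) for CASP8, chrX:123859904-123859932 (plus strand) for XIAP and chr12:122225741-122225769 (minus strand) for DIABLO.
CASP8: gccccaaaggtAAAATGGcccatccaaag
XIAP: tggtaagttgaAAAATGGcggagggggga
DIABLO: tttcagttcgtCCATCTTctagaaacgag
The matches began 229 bases before the start in CASP8, 138 before it in XIAP and at base 14 after it in DIABLO. The other 5 genes held no such letters in these windows. The CASP8 window belongs to the most downstream of its 3 listed starts. Likewise, the XIAP and DIABLO windows belong to the most downstream of the starts listed for those genes.

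Compared per kilobase of exon, the levels in ACHN shNC cells ran from 11.04 CPM per kb for CASP6, 10.2 for APAF1, 9.80 for CASP2 and 9.60 for CASP8 through 8.59 for BIRC2 and 5.30 for XIAP to 2.64 for DIABLO and 2.09 for CASP9. HK2 shNC cells had a different order, with 15.5 CPM per kb for CASP6, 11.7 for XIAP, 9.74 for APAF1, 7.75 for BIRC2, 6.99 for CASP2, 4.16 for CASP8, 2.30 for CASP9 and 1.01 for DIABLO. CASP9 and DIABLO thus had the lowest values of the 8 in both lines. DIABLO shares 1139 exon bases with ENSG00000256861 and 971 with B3GNT4, as described below, and the part of this in its value was not tested. Between the controls, ACHN had more CASP8 (log2 difference 1.21, SE 0.0589, adjusted p = 1.02e-16), DIABLO (1.40, SE 0.135, adjusted p = 2.81e-10) and CASP2 (0.50, SE 0.0508, adjusted p = 1.04e-09). It had less XIAP (-1.14, SE 0.0542, adjusted p = 6.28e-17) and CASP6 (-0.49, SE 0.0781, adjusted p = 2.97e-06). With BIRC2 (0.16, adjusted p = 0.031), 6 of 8 genes were called, that is, had an adjusted p under 0.05, beside 76.6% of all genes tested. The BIRC2 call was lost without ACHN shNC replicate 1 (0.15, adjusted p = 0.0761), ACHN shNC replicate 2 (0.16, adjusted p = 0.0587) or HK2 shNC replicate 1 (0.11, adjusted p = 0.148). It was also lost with DESeq2 (0.16, adjusted p = 0.0601), on total counts (0.10, adjusted p = 0.166), with all 24 libraries in 1 fit (0.15, adjusted p = 0.109) and after a correction for GC content and gene length (0.07, adjusted p = 0.341). Without HK2 shNC replicate 2, APAF1 was called as well (0.11, adjusted p = 0.0488).

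**Figure D1:**
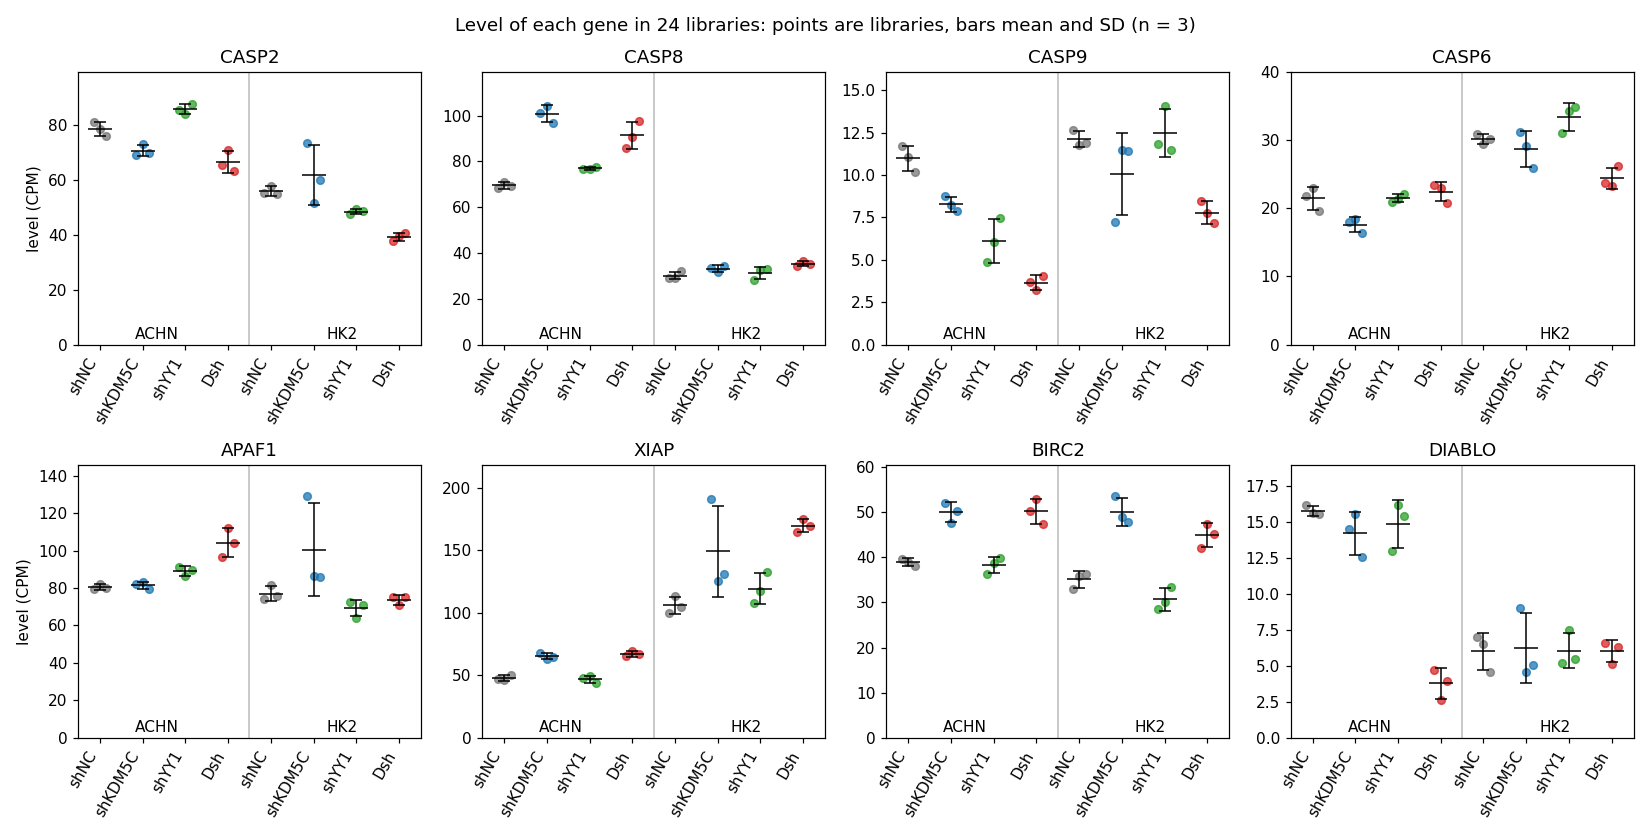
Level in CPM (vertical axes, from 0) of each of the 8 genes in every library, with ACHN on the left and HK2 on the right of each panel. Points are single libraries and bars show the mean and SD of 3. CASP9 fell to 3.20 to 4.06 CPM in ACHN double-knockdown cells and DIABLO to 2.65 to 4.72 CPM, while HK2 shKDM5C replicate 1 lay away from its group for APAF1 and XIAP.

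Against shNC, the knockdown of KDM5C alone in ACHN lowered CASP2, CASP6 and CASP9 and raised CASP8, XIAP and BIRC2, so that 6 of 8 genes were called, beside 56.6% of all genes (27.7% lower, 28.9% higher). Knockdown of YY1 alone in ACHN lowered CASP9 and raised CASP2, CASP8 and APAF1, 4 of 8 beside 48.7% (24.5% lower, 24.2% higher). In ACHN double-knockdown cells CASP2, CASP9 and DIABLO fell and CASP8, APAF1, XIAP and BIRC2 rose, 7 of 8 beside 62.6% (32% lower, 30.7% higher). Of those 7, CASP9 and DIABLO changed by at least 1.5 on the log2 scale, beside 8.42% of all genes. The study used the same fold cut, but with a P value under 0.05 from DESeq2. In HK2, none of the 8 was called after KDM5C knockdown (1.32% of all genes), and CASP2 alone fell after YY1 knockdown (29.1%, of which 14.7% lower). In HK2 double-knockdown cells 6 of 8 were called (49.8%), with CASP2, CASP6 and CASP9 lower (24.3%) and CASP8, XIAP and BIRC2 higher (25.5%), and none changed by 1.5 (4.3% of all genes). After HK2 KDM5C knockdown, XIAP and BIRC2 had an unadjusted p under 0.05, a rule for which no share of all genes is given here. DESeq2 called BIRC2 there. The called counts lay near or above the shares of all genes, except after HK2 YY1 knockdown, where 1 of 8 lay below 29.1%. Past 1.5 in ACHN, 2 of 8 stood beside 8.42%. With only 8 genes, the counts alone do not mark them out. The median log2 change of the 8 in the double knockdown was 0.22 in ACHN and -0.02 in HK2, beside -0.01 and -0.003 over all genes tested. The 3 knockdowns of a line were compared with the same shNC libraries. Full separation of libraries, given below for single genes, was common among all genes. Of genes averaging at least 1 CPM, 65.3% (shKDM5C), 58.3% (shYY1) and 70.1% (double knockdown) did not overlap shNC in ACHN. In HK2 the shares were 33.6%, 43.5% and 59.5% in that order. Separation alone therefore does not mark a gene out.

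**Figure D2:**
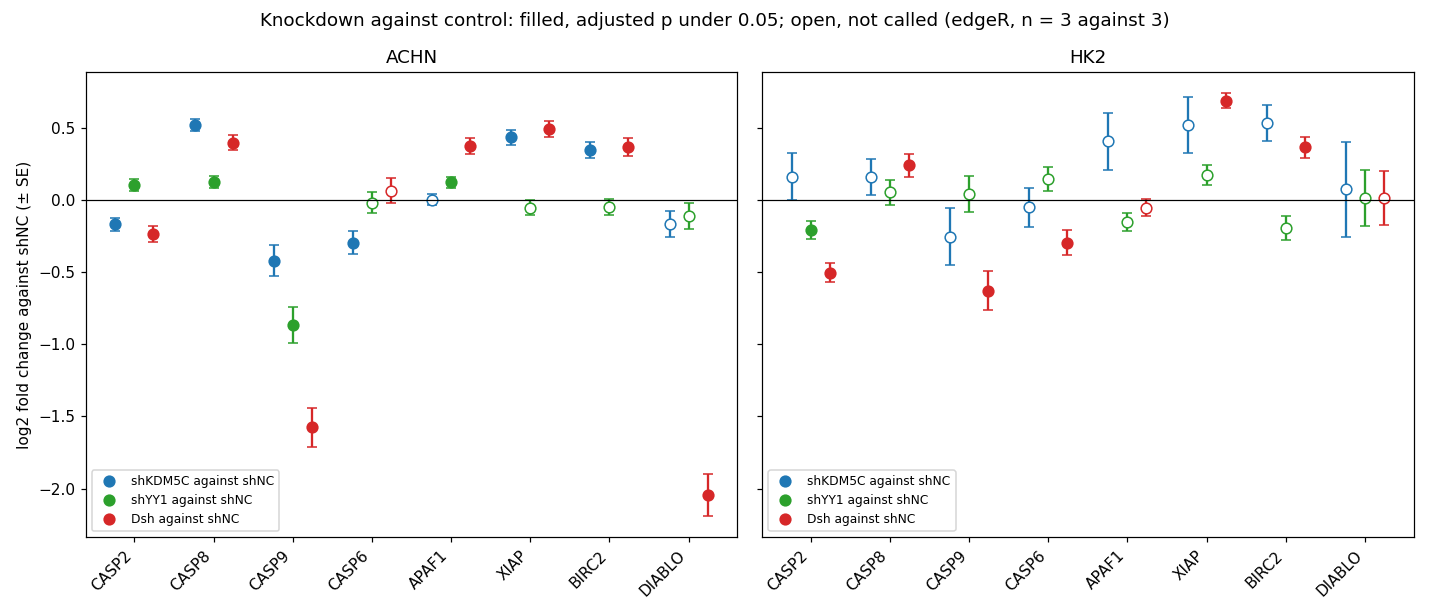
Log2 fold change against shNC with its standard error (vertical axis) for each gene after KDM5C knockdown, YY1 knockdown and the double knockdown, in ACHN (left) and HK2 (right), 3 libraries against 3. Filled points had an adjusted p under 0.05 and open points did not. DIABLO at -2.04 and CASP9 at -1.58 in ACHN double-knockdown cells lay lowest, and XIAP at 0.69 in HK2 double-knockdown cells lay highest.

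Among the initiator caspases, CASP9 (ENSG00000132906, chr1:15490832-15526534, minus strand), the caspase of the apoptosome, showed a graded fall in ACHN. Its level was 11.7, 11.1 and 10.2 CPM in the shNC libraries, 8.75, 8.26 and 7.87 CPM with shKDM5C, 4.88, 6.06 and 7.46 CPM with shYY1, and 3.69, 3.20 and 4.06 CPM in the double knockdown. None of the 4 ACHN groups overlapped another. The log2 change against shNC was -0.42 (SE 0.106, adjusted p = 0.00149) for KDM5C, -0.87 (SE 0.125, adjusted p = 4.76e-07) for YY1 and -1.58 (SE 0.137, adjusted p = 9.23e-09) for both, or 0.335 times the control. Double-knockdown cells also had less CASP9 than shKDM5C cells (-1.15, SE 0.149, adjusted p = 3.11e-06) and shYY1 cells (-0.73, SE 0.179, adjusted p = 0.00182). The excess over the sum of the single effects was not called (interaction -0.31, 95% interval -0.70 to 0.08, adjusted p = 0.194). Counts per ACHN library behind these values were 58 to 225.

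In HK2, CASP9 stood at 12.7, 11.8 and 11.9 CPM in shNC and at 8.47, 7.76 and 7.15 CPM in the double knockdown, without overlap (-0.63, SE 0.137, adjusted p = 0.000282). HK2 shYY1 cells, at 11.8, 14.1 and 11.5 CPM, overlapped their control (0.04, 95% interval -0.20 to 0.28). HK2 shKDM5C libraries were at 7.26, 11.5 and 11.4 CPM, the lowest being replicate 1. That comparison was not called (-0.25, adjusted p = 0.525), nor without replicate 1 (-0.09, adjusted p = 0.705). The step from the single knockdowns to the double knockdown in ACHN lies on the division seen in RPSAP15, whose part in it was not tested. The falls with shKDM5C and shYY1 alone lie within the 9 similar ACHN libraries. CASP9 exons share 106 bases with the antisense gene CELA2B, which had 29 counts over all 24 libraries.

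CASP8 (ENSG00000064012, chr2:201233443-201287711, plus strand), the initiator of the death receptor route, moved the other way in ACHN. It was at 68.2, 71.1 and 69.3 CPM in shNC, 101, 104 and 97.0 CPM with shKDM5C, 76.5, 76.8 and 77.7 CPM with shYY1, and 85.7, 90.8 and 97.5 CPM in the double knockdown. Every library of the 3 knockdown groups lay above every control library. The rise was 0.52 (SE 0.0418, adjusted p = 7.58e-11) after KDM5C knockdown, 0.12 (SE 0.0412, adjusted p = 0.0128) after YY1 knockdown and 0.40 (SE 0.0547, adjusted p = 4.06e-06) in the double knockdown. The double effect was smaller than the sum of the single effects (interaction -0.27, SE 0.0672, adjusted p = 0.00135), and -0.17 when scaled to total counts. Double-knockdown and shKDM5C cells were not called different (-0.12, adjusted p = 0.0665), but were without ACHN shKDM5C replicate 3 (-0.17, adjusted p = 0.0417) or ACHN Dsh replicate 3 (-0.18, adjusted p = 0.0138).

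HK2 cells held less CASP8, at 29.2, 29.3 and 31.9 CPM in shNC, and 34.5, 36.5 and 35.2 CPM in the double knockdown. The groups did not overlap, and the change was 0.24 (SE 0.079, adjusted p = 0.0121). This call was lost without HK2 shNC replicate 1 (0.22, adjusted p = 0.0527) and in a fit of all 4 HK2 groups (0.23, adjusted p = 0.121), which takes in the outlying shKDM5C library. Single knockdowns gave 0.16 (KDM5C, adjusted p = 0.532, and 0.13, adjusted p = 0.343, without replicate 1) and 0.05 (YY1, adjusted p = 0.695), neither called.

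CASP2 (ENSG00000106144, chr7:143288215-143307696, plus strand), the PIDDosome caspase, was lower in the double knockdown of both lines. ACHN shNC libraries had 81.1, 78.6 and 76.2 CPM, shKDM5C 69.3, 73.0 and 69.7 CPM, shYY1 85.6, 84.1 and 87.9 CPM, and double-knockdown libraries 65.4, 71.0 and 63.5 CPM. The shYY1 libraries lay above the control and the other knockdowns below it. The log2 changes were -0.17 (SE 0.0435, adjusted p = 0.00179), 0.10 (SE 0.04, adjusted p = 0.0306) and -0.24 (SE 0.0554, adjusted p = 0.00102) in that order. The small rise after YY1 knockdown was lost without ACHN shNC replicate 2 (0.10, adjusted p = 0.0753), ACHN shNC replicate 3 (0.08, adjusted p = 0.143), ACHN shYY1 replicate 1 (0.11, adjusted p = 0.0612) or ACHN shYY1 replicate 3 (0.09, adjusted p = 0.104), with DESeq2 (0.11, adjusted p = 0.069) and on total counts (0.09, adjusted p = 0.0691). The interaction of -0.20 (adjusted p = 0.0148) was not called on total counts (-0.10, adjusted p = 0.208).

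In HK2, CASP2 stood at 55.3, 58.0 and 54.9 CPM in shNC, 47.6, 49.4 and 48.6 CPM with shYY1, and 37.7, 39.5 and 40.6 CPM in the double knockdown. These 3 groups were fully separated, with the double knockdown lowest of all 8 groups. The fall was 0.50 on the log2 scale with both knockdowns (log2 change -0.50, SE 0.0676, adjusted p = 2.28e-07) and smaller with shYY1 (-0.21, SE 0.0648, adjusted p = 0.0182). The shYY1 call was lost without HK2 shNC replicate 2 (-0.19, adjusted p = 0.0711) and in the fit of all 4 HK2 groups (-0.21, adjusted p = 0.42). HK2 shKDM5C libraries were at 73.7, 51.8 and 59.9 CPM, spanning the control (0.16, adjusted p = 0.622), and without replicate 1 the change was -0.01. CASP2 was the only gene of the 8 called between HK2 double-knockdown and shKDM5C cells (-0.67, SE 0.167, adjusted p = 0.0441; 11.9% of all genes). That call was lost without HK2 shKDM5C replicate 3 (-0.70, adjusted p = 0.0881) or HK2 Dsh replicate 1 (-0.63, adjusted p = 0.184), 2 (-0.67, adjusted p = 0.166) or 3 (-0.68, adjusted p = 0.162), and kept without HK2 shKDM5C replicate 1 (-0.50, adjusted p = 1.66e-05).

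CASP6 (ENSG00000138794, chr4:109688622-109703583, minus strand), an effector caspase, was called lower than shNC in ACHN shKDM5C cells and was not called in the other ACHN knockdowns. Its level was 21.8, 22.9 and 19.6 CPM in shNC, 18.03, 18.5 and 16.4 CPM with shKDM5C, 21.0, 21.4 and 22.2 CPM with shYY1, and 23.4, 23.1 and 20.8 CPM in the double knockdown. The shKDM5C libraries lay below all others (-0.30, SE 0.0801, adjusted p = 0.00262). The double knockdown overlapped the control (0.06, 95% interval -0.10 to 0.23) and was above shKDM5C (0.36, SE 0.0864, adjusted p = 0.00143), which gave a positive interaction (0.36, SE 0.112, adjusted p = 0.00872). After each library was corrected for GC content and gene length, an alternative chosen after seeing the data, CASP6 was called higher in ACHN double-knockdown cells (0.22, adjusted p = 0.0227). In HK2, the control libraries had 30.9, 29.5 and 30.2 CPM and the double-knockdown libraries 23.8, 23.3 and 26.2 CPM, a fall without overlap (-0.30, SE 0.0859, adjusted p = 0.00475) that was not called in the fit of all 4 HK2 groups (-0.30, adjusted p = 0.066). The HK2 shKDM5C libraries, at 31.2, 29.2 and 25.9 CPM, spanned the control (-0.05, adjusted p = 0.855, and -0.14, adjusted p = 0.321, without replicate 1). CASP6 exons share 105 bases with the antisense gene MCUB, which is expressed at a like level (19.7 CPM in ACHN shNC), and the counts were not separated by strand.

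APAF1 (ENSG00000120868, chr12:98645141-98735433, plus strand), the scaffold that activates CASP9, rose in ACHN shYY1 and double-knockdown cells. It measured 79.4, 82.2 and 80.0 CPM in shNC, 81.9, 83.0 and 79.5 CPM with shKDM5C, 91.3, 86.4 and 89.4 CPM with shYY1, and 96.3, 112 and 104 CPM in the double knockdown. The shYY1 and double-knockdown libraries lay above all control libraries, and shKDM5C overlapped them (0.003, 95% interval -0.08 to 0.08). The rise was 0.12 (SE 0.039, adjusted p = 0.00955) with shYY1 and 0.37 (SE 0.0554, adjusted p = 9.83e-06) in the double knockdown, larger than the sum of the single effects (interaction 0.22, SE 0.0682, adjusted p = 0.00691). The shYY1 call was lost without ACHN shYY1 replicate 1 (0.11, adjusted p = 0.0599), and the interaction after the correction for GC content and length (0.13, adjusted p = 0.0582). APAF1 exons share 750 bases (9.48%) with the antisense gene ANKS1B. Over all 24 libraries ANKS1B had 1421 counts and APAF1 37164.

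In HK2, APAF1 was not called in any knockdown against shNC with all libraries, and was called lower with shYY1 without HK2 shYY1 replicate 1 (-0.19, adjusted p = 0.0447). The control libraries had 74.1, 81.4 and 75.6 CPM, the shYY1 libraries 72.8, 64.2 and 70.8 CPM and the double-knockdown libraries 75.02, 70.8 and 75.1 CPM. The double-knockdown change was -0.06 (95% interval -0.17 to 0.06). HK2 shKDM5C libraries had 129, 86.3 and 85.7 CPM, with replicate 1 far above (0.41, adjusted p = 0.374, and 0.15, adjusted p = 0.0662, without it). Within ACHN libraries the ratio of APAF1 to CASP9 per exon length, a description of these 2 transcripts, went from 4.89 in shNC to 19.1 in the double knockdown.

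Both IAPs were higher where KDM5C was depleted in ACHN. XIAP (ENSG00000101966, chrX:123859724-123913979, plus strand) binds and blocks CASP9 and the effector caspases. Its ACHN level was 46.7, 46.4 and 50.4 CPM in shNC, 67.8, 63.4 and 64.4 CPM with shKDM5C, 47.5, 49.2 and 43.8 CPM with shYY1, and 65.1, 69.3 and 66.9 CPM in the double knockdown. The 6 libraries with the KDM5C hairpin lay above the 6 without it. The log2 change was 0.43 (SE 0.0499, adjusted p = 4.78e-08) with shKDM5C, -0.05 (95% interval -0.16 to 0.05) with shYY1, and 0.49 (SE 0.0571, adjusted p = 4.91e-07) with both. Double-knockdown and shKDM5C cells did not differ beyond their spread (0.06, 95% interval -0.05 to 0.17), and the interaction was 0.09 (adjusted p = 0.363).

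HK2 cells had more XIAP, at 99.97, 113 and 105 CPM in shNC and 164, 175 and 169.5 CPM in the double knockdown, the largest rise of the 8 genes in that comparison (0.69, SE 0.0519, adjusted p = 1.45e-12). The shYY1 libraries, at 108, 118 and 133 CPM, overlapped the control (0.17, adjusted p = 0.0583) and were called on leaving out HK2 shNC replicate 2 (0.22, adjusted p = 0.0423) or HK2 shYY1 replicate 1 (0.24, adjusted p = 0.0103). The shKDM5C libraries, at 191, 126 and 131 CPM, all lay above the control. That rise of 0.52 was not called (adjusted p = 0.284), whereas it was smaller and called without replicate 1 (0.27, adjusted p = 0.000792). HK2 double-knockdown cells had more XIAP than shYY1 cells (0.52, SE 0.0635, adjusted p = 3.59e-07). They were not called different from shKDM5C cells (0.17, adjusted p = 0.58) until replicate 1 was left out (0.41, adjusted p = 6.13e-07).

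BIRC2 (ENSG00000110330, chr11:102347211-102378670, plus strand) encodes cIAP1, a ubiquitin ligase of the TNF receptor complex. ACHN libraries had 39.7, 39.1 and 38.0 CPM in shNC, 52.1, 47.7 and 50.2 CPM with shKDM5C, 36.3, 38.7 and 39.9 CPM with shYY1, and 50.3, 52.9 and 47.3 CPM in the double knockdown. As with XIAP, the 6 libraries with the KDM5C hairpin lay above the other 6. The change was 0.35 (SE 0.0541, adjusted p = 5.55e-06) with shKDM5C, -0.05 (95% interval -0.16 to 0.06) with shYY1 and 0.37 (SE 0.0628, adjusted p = 5e-05) with both. In HK2 the libraries had 33.0, 36.0 and 36.4 CPM in shNC, 53.7, 49.0 and 47.8 CPM with shKDM5C, 28.6, 30.1 and 33.5 CPM with shYY1, and 42.1, 47.4 and 45.2 CPM in the double knockdown. The shKDM5C and double-knockdown libraries lay above all control libraries. The double knockdown was called (0.36, SE 0.0748, adjusted p = 0.000142). The larger difference with shKDM5C was not (0.53, SE 0.127, adjusted p = 0.124), but was without replicate 1 (0.46, adjusted p = 7.35e-05). Without that library, XIAP and BIRC2 were the 2 of 8 genes called after KDM5C knockdown in HK2, beside 22.3% of all genes. HK2 shYY1 was not called (-0.19, adjusted p = 0.0893), except without HK2 shYY1 replicate 3 (-0.27, adjusted p = 0.0412).

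DIABLO (ENSG00000184047, chr12:122207662-122227534, minus strand), the mitochondrial IAP antagonist, had the largest change of the 8. ACHN libraries had 16.2, 15.6 and 15.5 CPM in shNC, 14.5, 15.5 and 12.6 CPM with shKDM5C, 12.9, 16.2 and 15.4 CPM with shYY1, and 4.72, 2.65 and 3.98 CPM in the double knockdown, from 48 to 98 counts per library in that last group. The double-knockdown libraries lay below all other ACHN libraries and reached the lowest HK2 libraries. Against shNC the log2 change was -2.04 (SE 0.147, adjusted p = 6.9e-10), or 0.242 times the control. It was -1.88 against shKDM5C (SE 0.161, adjusted p = 2.18e-08) and -1.95 against shYY1 (SE 0.16, adjusted p = 1.31e-08), with an interaction of -1.79 (SE 0.184, adjusted p = 7.55e-09). The single knockdowns were not called, at -0.17 (95% interval -0.34 to 0.01) with shKDM5C and -0.11 (95% interval -0.28 to 0.06) with shYY1. Without ACHN shKDM5C replicate 2 the former was called (-0.23, adjusted p = 0.0478).

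HK2 showed no such fall. Its DIABLO level was 6.999, 6.49 and 4.54 CPM in shNC and 6.59, 5.13 and 6.30 CPM in the double knockdown, with overlapping groups (0.01, 95% interval -0.36 to 0.38). The HK2 shYY1 libraries had 5.23, 7.49 and 5.48 CPM and the shKDM5C libraries 9.04, 4.60 and 5.07 CPM, with the highest again in replicate 1. The shKDM5C change was 0.07 (adjusted p = 0.92), and without replicate 1 it turned to -0.32 (adjusted p = 0.308), neither called. DIABLO therefore parted the 24 libraries as RPSAP15 did: the 9 ACHN libraries without the double knockdown were at 12.6 to 16.2 CPM, and the other 15 at 2.65 to 9.04 CPM. The 3 genes most correlated with DIABLO over the 24 libraries, after each line's mean was removed, were RPS27P3 (r = 0.944), ENSG00000225178 (r = 0.935) and RPSAP47 (r = 0.934). In ACHN shNC, shKDM5C, shYY1 and double-knockdown cells, RPSAP47, also a ribosomal protein pseudogene, averaged 75.1, 34.3, 69.0 and 0.0171 CPM, and ENSG00000225178 averaged 103, 122, 102 and 16.8 CPM. ENSG00000225178 averaged 12.8 to 14.8 CPM in the HK2 groups. Processed pseudogenes took 0.382% to 0.418% of counts in the 9 ACHN libraries and 0.295% to 0.315% in the ACHN double knockdown, with 0.288% to 0.392% in HK2. Their part in the DIABLO result was not tested. Per exon length, XIAP exceeded DIABLO 2.01 times in ACHN shNC and 12.1 times in ACHN double-knockdown cells, and 11.8 and 18.8 times in the same HK2 groups.

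**Figure D3:**
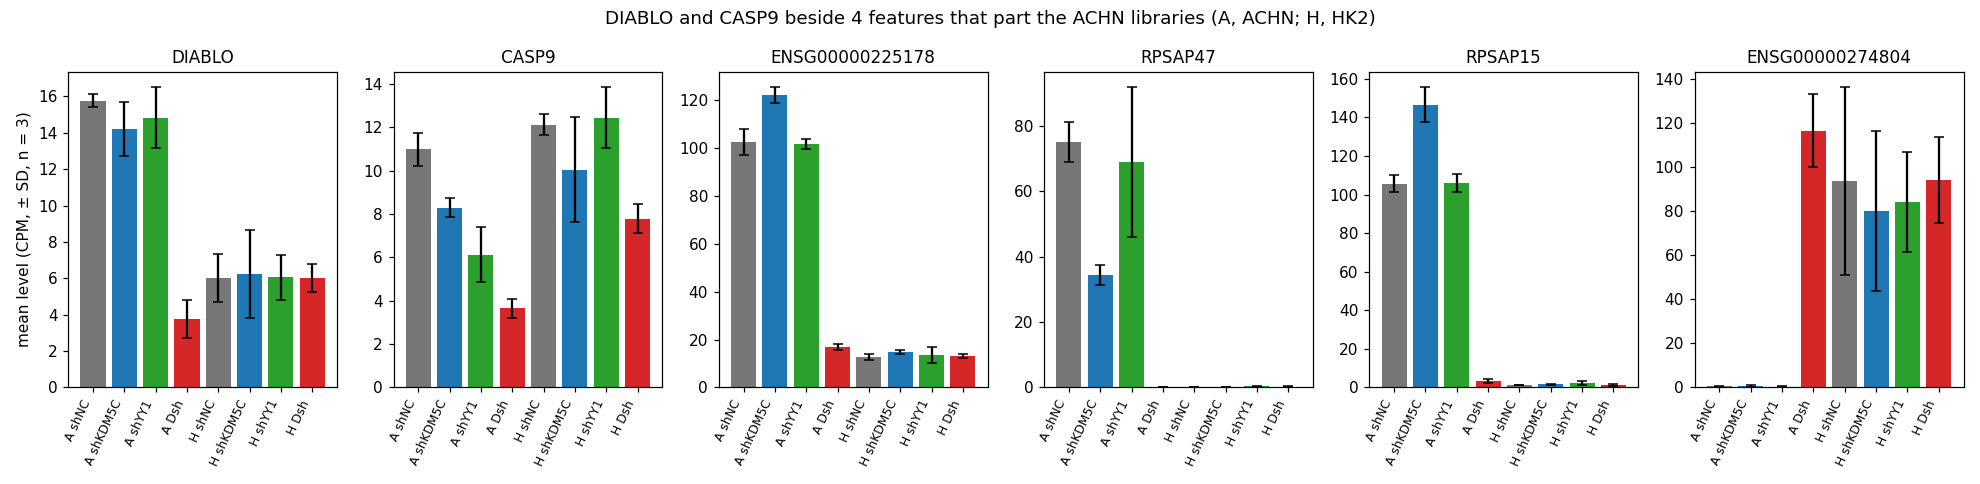
Mean level in CPM with SD (vertical axes, from 0, 3 libraries a group) of DIABLO, CASP9 and 4 features in the 4 ACHN (A) and 4 HK2 (H) groups. DIABLO, ENSG00000225178, RPSAP47 and RPSAP15 were high in ACHN shNC, shKDM5C and shYY1 cells alone and ENSG00000274804 was low there, whereas CASP9 was stepped within those groups and was as high in HK2 shNC (12.1 CPM) as in ACHN shNC (10.99 CPM).

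The DIABLO exons also share sequence positions with other genes. They overlap the antisense gene B3GNT4 over 971 bases (16.3% of DIABLO exon bases) and ENSG00000256861, on the same strand, over 1139 bases (19.1%). The latter gene was listed with 0 counts in all 24 libraries, and a read lying in both genes is not counted for either under the counting defaults. B3GNT4 was at 9.78 CPM in ACHN shNC, 3.81 CPM with shKDM5C, 2.32 CPM with shYY1 and 2.79 CPM in the double knockdown. The part of these shared bases in the DIABLO values, and in the ratios of XIAP to DIABLO, was not tested.

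The order of the groups differed by gene. CASP2 ran from HK2 double knockdown (39.3 CPM) and shYY1 (48.5 CPM) up to ACHN shNC (78.6 CPM) and ACHN shYY1 (85.9 CPM), and HK2 shNC, HK2 shKDM5C, ACHN double knockdown and ACHN shKDM5C overlapped their neighbours in between. CASP8 was lower in every HK2 group (30.1 to 35.4 CPM) than in any ACHN group (69.5 to 100.7 CPM), and the 4 HK2 groups overlapped in sequence. XIAP had the opposite arrangement, with ACHN groups at 46.8 to 67.1 CPM and HK2 groups at 106 to 169.6 CPM. CASP9 was lowest in ACHN double-knockdown cells (3.65 CPM), and from ACHN shYY1 (6.13 CPM) to ACHN shNC (10.99 CPM) each group overlapped the next. For DIABLO, the 4 HK2 groups at 6.01 to 6.24 CPM could not be ordered, nor could the 3 upper ACHN groups at 14.2 to 15.8 CPM. CASP6 was lowest in ACHN shKDM5C (17.6 CPM) and highest in HK2 shYY1 (33.4 CPM), each apart from its neighbour. APAF1 and BIRC2 were highest in ACHN double-knockdown cells (104 and 50.2 CPM) and lowest in HK2 shYY1 cells (69.3 and 30.7 CPM), each overlapping its neighbour at both ends.

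Whether the knockdowns acted alike in the lines was tested as the difference of their effects, ACHN minus HK2. By the same test the targets were lowered less in ACHN. KDM5C differed by 1.02 after KDM5C knockdown (adjusted p = 0.0203, HK2 shKDM5C replicate 1 included). YY1 differed by 0.84 after YY1 knockdown (adjusted p = 3.52e-11). In the double knockdown KDM5C differed by 0.71 (adjusted p = 2.01e-09) and YY1 by 0.99 (adjusted p = 3.67e-12). The part of these depths in the differences below was not tested. For the double knockdown, 5 of 8 genes were called, beside 46% of all genes. The difference was -2.04 for DIABLO (SE 0.248, adjusted p = 7.17e-08) and -0.93 for CASP9 (SE 0.192, adjusted p = 0.000208), both with the larger fall in ACHN. It was 0.45 for APAF1 (SE 0.0804, adjusted p = 3.32e-05), which rose in ACHN alone, 0.38 for CASP6 (SE 0.121, adjusted p = 0.0106), which fell in HK2 and was not called in ACHN (0.06), and 0.28 for CASP2 (SE 0.0844, adjusted p = 0.00645), which fell further in HK2. The CASP6 difference was lost without ACHN shNC replicate 3 (0.29, adjusted p = 0.0738) and without a filter on low counts (0.33, adjusted p = 0.0547). The CASP2 difference was lost without that filter (0.24, adjusted p = 0.0522) and with all 24 libraries in 1 fit (0.27, adjusted p = 0.104). XIAP was not called (-0.18, adjusted p = 0.0604), but was without ACHN shNC replicate 1 (-0.23) or 2 (-0.23), ACHN Dsh replicate 2 (-0.21), HK2 shNC replicate 2 (-0.24) or HK2 Dsh replicate 1 (-0.21), and with DESeq2 (-0.21, adjusted p = 0.0312). For BIRC2 the effects were 0.37 and 0.36, and the difference of 0.02 had a 95% interval of -0.17 to 0.21.

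After YY1 knockdown 3 of 8 genes were called different between the lines, beside 33.1% of all genes. They were CASP9 (-0.89, SE 0.186, adjusted p = 0.00036), CASP2 (0.32, SE 0.0712, adjusted p = 0.000647) and APAF1 (0.29, SE 0.0724, adjusted p = 0.00249). With all 24 libraries in 1 fit, CASP2 (0.34, adjusted p = 0.077) and APAF1 (0.30, adjusted p = 0.226) were not called. XIAP (-0.21, adjusted p = 0.0768) was called without HK2 shNC replicate 2 (-0.26, adjusted p = 0.0335) or HK2 shYY1 replicate 1 (-0.29, adjusted p = 0.00993). After KDM5C knockdown CASP8 alone was called (0.38, SE 0.11, adjusted p = 0.0458), beside 11.9% of all genes. The CASP8 call was kept without HK2 shKDM5C replicate 1 (0.40, adjusted p = 0.000365; 33.9% of all genes) and without HK2 shKDM5C replicate 3, and lost on leaving out any other of the 12 libraries (0.34 to 0.41, adjusted p = 0.0629 to 0.114). It was also lost with RLE size factors (0.35, adjusted p = 0.0697) and without a filter on low counts (0.41, adjusted p = 0.178).

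**Figure D4:**
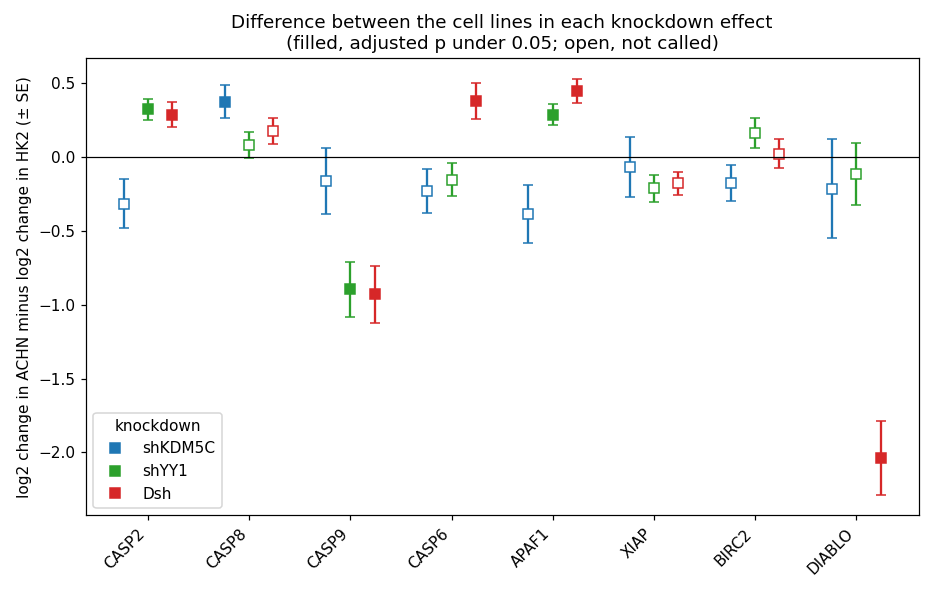
Difference between ACHN and HK2 in the log2 effect of each knockdown, with its standard error (vertical axis), for the 8 genes. Filled squares had an adjusted p under 0.05. DIABLO in the double knockdown (-2.04) and CASP9 in the YY1 (-0.89) and double knockdown (-0.93) lay lowest, and BIRC2 had no filled square.

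Non-additivity was tested in each line as the double effect minus both single effects. In ACHN the targets were themselves called, KDM5C at -0.42 (adjusted p = 6.48e-06) and YY1 at 0.28 (adjusted p = 0.00125). In HK2 they were not called (-0.10 and 0.03). The part of this in the interactions of the 8 genes was not tested. In ACHN 5 of 8 genes were called (DIABLO, CASP8 and CASP2 below the sum, CASP6 and APAF1 above it), beside 55.6% of all genes (28.8% below, 26.8% above). In HK2 none was called with edgeR (9.61% of all genes), and DESeq2 called none. CASP2 (-0.46) and CASP6 (-0.39) had an unadjusted p under 0.05, again without a share of all genes. Without HK2 shKDM5C replicate 1, CASP2 (-0.28, adjusted p = 0.0382), CASP9 (-0.57, adjusted p = 0.0213) and XIAP (0.25, adjusted p = 0.0402) were called, beside 28.7% of all genes. Without HK2 shKDM5C replicate 2, CASP2 was called (-0.58, adjusted p = 0.0339). Double-knockdown cells were also compared with each single knockdown. In ACHN, 4 of 8 genes differed from shKDM5C (62.5% of all genes) and 7 of 8 from shYY1 (64.6%), and in HK2 5 of 8 differed from shYY1 (47.7%). Against HK2 shKDM5C without replicate 1, 4 of 8 differed (43.3%), with CASP2, CASP9 (-0.55) and APAF1 (-0.21) lower and XIAP higher.

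The other genes of the cascade gave the surroundings of these changes. Their ACHN changes in the double knockdown also lie on the division seen in RPSAP15, whose part was not tested. Of a list of 37, 31 passed the filter in ACHN, of which 6 fell and 17 rose in the double knockdown, beside 32% lower and 30.7% higher of all genes tested, with a median log2 change of 0.26 beside -0.01 over all genes. In HK2, 30 passed, 6 fell and 13 rose, beside 24.3% lower and 25.5% higher of all genes, with a median of 0.17. Those named changed by at least 0.5 on the log2 scale, as did 36.2% of all genes in ACHN and 24.6% in HK2. In the death receptor arm, which feeds CASP8, 8 of 11 genes rose and 1 fell in ACHN, and 5 of 11 rose and 3 fell in HK2, to be read against the same shares of all genes (30.7% higher and 32% lower in ACHN, 25.5% and 24.3% in HK2). FAS rose by 1.96 and 1.26 (ACHN, HK2), the TRAIL receptors TNFRSF10B by 1.33 and 1.83 and TNFRSF10A by 0.76 and 0.82, and the adaptor TRADD by 0.94 and 0.51. CFLAR, which restrains CASP8, rose by 0.60 in ACHN and fell by 0.14 in HK2, and the kinase gene RIPK1 rose by 0.24 in ACHN and fell by 0.80 in HK2. TNFRSF1A rose by 0.94 in ACHN, and the TRAIL gene TNFSF10 by 0.70 in HK2.

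Among the other IAPs, BIRC3, the close relative of BIRC2, rose by 3.11 in ACHN (SE 0.0741, adjusted p = 9.96e-17) and by 1.16 in HK2 (SE 0.0694, adjusted p = 6.24e-15). BIRC5, which encodes survivin and is tied to cell division, fell by 0.64 in ACHN and by 0.43 in HK2. BIRC7 went in opposite directions, at -2.45 in ACHN and 1.30 in HK2. It was scarce in ACHN, at 1.71 CPM in shNC and 0.326 CPM (3 to 12 counts per library) in the double knockdown. Of the mitochondrial factors, CYCS (cytochrome c, -0.80), AIFM1 (-0.60) and SEPTIN4 (-2.15, a septin) fell and ENDOG rose (0.88) in ACHN. None of the 4 tested in HK2 changed by 0.5. SEPTIN4 was near the floor, at 1.81 CPM in ACHN shNC and 0.401 CPM (7 to 10 counts) in the double knockdown. PIDD1, a PIDDosome component with which CASP2 is activated, rose by 0.84 in ACHN and was not called in HK2 (0.17). The inflammatory caspase CASP1 (2.48) and CASP10 (0.63) rose in ACHN, and CASP4 rose by 1.68 in HK2 and 0.43 in ACHN. CASP1 started from 1.72 CPM in ACHN shNC (29 to 36 counts per library) and CASP4 from 0.794 CPM in HK2 shNC (12 to 18 counts).

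**Figure D5:**
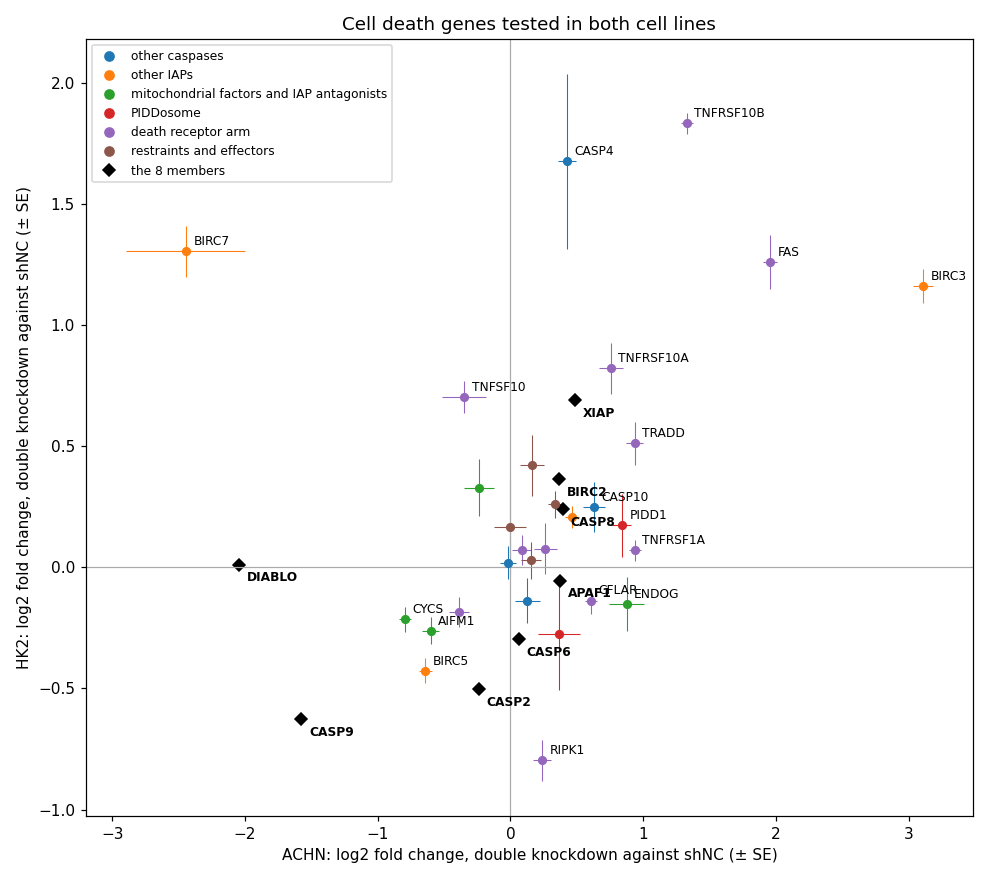
Log2 fold change of the double knockdown against shNC in ACHN (horizontal axis) and HK2 (vertical axis), each with its standard error, for the listed cascade genes tested in both lines (circles, coloured by class) and the 8 genes (black diamonds, no error bars). BIRC3, FAS, TNFRSF10B and XIAP lay in the upper right, CASP9 and CASP2 in the lower left, BIRC7 in the upper left, and DIABLO near 0 in HK2.

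Among the genes whose pattern over the 24 libraries was most like that of each member, after removal of the line means and over 10086 genes of at least 10 CPM, were YEATS2 and CHORDC1 for CASP2 (r = 0.945 and 0.944) and SLC39A8, CD47 and MAN2A1 for XIAP (r = 0.962, 0.947 and 0.943). For CASP9 they included PDXK and MCM2 (r = 0.928 and 0.917), for APAF1 TRPM7, ARHGEF12 and PRTG (0.940, 0.930 and 0.926), and for BIRC2 DENND2B, COX15 and DCP2 (0.923, 0.916 and 0.911). CASP8 was nearest to KCNK3, YRDC and ARHGAP19 (0.901, 0.884 and 0.883), and CASP6 to CAV2, SH3BP4 and BPNT2 (0.802, 0.798 and 0.791). Among the 8 themselves, XIAP was most alike to BIRC2 (r = 0.809) and CASP8 (r = 0.771). These coefficients describe libraries that share groups and depth, and the outlying HK2 library enters them.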

How the data were processed

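Total RNA of ACHN and HK2 cells was sequenced after NEBNext Ultra library preparation. The deposited values are raw counts per gene, 1 library per table, which the authors made by aligning read pairs with HISAT2 2.0.5 and counting with featureCounts on Ensembl release 84 (GRCh38). The submitters' notes name featureCounts 1.5.0-p3 and the file headers 2.0.1, with no strand option. Groups follow the labels, which do not say that replicates were separate cultures, so p-values measure the spread between these libraries.

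All genes were fitted with edgeR 4.0.16 (TMM, filterByExpr, quasi-likelihood F test) in R 4.3.3, each comparison on its own groups, 16 comparisons in all, and p-values were adjusted over all genes tested (Benjamini-Hochberg). Calls were made below an adjusted p of 0.05. The script was tested on simulated data. Intervals are normal 95% intervals. Log2 folds use each comparison's own scaling, and CPM that of all 24 libraries. DESeq2 1.42.0, other scalings, filters and fits, and leaving out each library were alternatives.

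The members and lists were chosen with earlier results of these data known. Named were the 8 members, KDM5C and YY1, list genes called with a log2 change of at least 0.5 in a double knockdown, and the 3 genes most correlated with each member (log2 of CPM + 0.5), some of which are not reported here. COL1A1, GGT1, RPSAP15, ENSG00000274804 and the exon neighbours were named after their values were seen. Promoter sequences are from RefSeq and pseudogene classes from GENCODE.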

Additional observations from a re-analysis of the deposited data

Results flagged for a closer look

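A total of 9 effects differed between ACHN and HK2 by the test of the difference itself (edgeR, adjusted p under 0.05, log2 effect in ACHN minus that in HK2). In the double knockdown these were DIABLO (-2.04), CASP9 (-0.93), APAF1 (0.45), CASP6 (0.38) and CASP2 (0.28). After YY1 knockdown they were CASP9 (-0.89), CASP2 (0.32) and APAF1 (0.29), and after KDM5C knockdown CASP8 (0.38). All differences in the double knockdown use the ACHN double-knockdown libraries, which the division described for RPSAP15 sets apart from the other ACHN libraries. DIABLO moves with that division, whose part in these differences was not tested. The knocked-down genes KDM5C and YY1 were also lowered less in ACHN than in HK2, and the part of that was not tested either. The CASP8 difference after KDM5C knockdown rested on nearly every library that entered it. The CASP2 and CASP6 differences in the double knockdown, and those of CASP2 and APAF1 after YY1 knockdown, were not called under some of the alternatives given beside them.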

How the results depend on the processing

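For the 8 genes in 16 comparisons, 1922 of 2016 log2 changes recomputed under an alternative stayed on their side of the threshold, 46 lost a call, 46 gained one in the same direction and 2 gained one with the sign turned. The sign turned in 74 of the 2016, none of them called with all libraries and settings as reported, and 72 of them called in neither. The 2 called after turning were XIAP in the HK2 interaction without HK2 shKDM5C replicate 1 (0.25, range -0.12 to 0.25 over the libraries left out, near 0 with all libraries) and XIAP in the line difference of the KDM5C effect with GC and length trends taken out (0.28). That last setting was chosen after seeing the data (99.9% of tested genes had a GC value). The number of the 8 genes called moved as follows, and the cause was not tested. For HK2 shKDM5C against shNC it was 1 with DESeq2 or all 4 groups in the fit (0 in the main analysis). For HK2 shYY1 against shNC (1) it was 3 on total counts, 2 without a filter, 0 with all 4 groups and 3 with GC and length trends taken out. For HK2 Dsh against shKDM5C (1) it was 2 with all 4 groups and 2 with GC and length trends taken out, and for the HK2 interaction (0) it was 1 with the latter. For the line difference of the KDM5C effect (1) it was 0 with RLE size factors or no filter and 2 with GC and length trends taken out, and for that of the YY1 effect (3) it was 1 with all 24 libraries in the fit.

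Leaving out 1 library at a time gave 6 to 7 genes called for ACHN shKDM5C against shNC, 2 to 4 for ACHN shYY1, 7 for ACHN Dsh, 0 to 2 for HK2 shKDM5C, 1 to 3 for HK2 shYY1 and 5 to 6 for HK2 Dsh. The ranges were 0 to 4 for HK2 Dsh against shKDM5C, 0 to 3 for the HK2 interaction, 0 to 1 and 3 to 4 for the line differences of the KDM5C and YY1 effects, and 4 to 6 for that of the double knockdown. Where it left 1 group with 2 libraries the spread was shared across groups. Except without HK2 shKDM5C replicate 1, no share of all genes is given beside the counts under alternatives. They show only how far a count moved.

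Same-numbered replicates did not deviate together in every pair of any comparison (lowest correlation of a comparison's pairs from -0.334 to 0.0293). The main fits used no pairing. With so few libraries a group, this check cannot exclude that same-numbered libraries were prepared together. With the replicate number as a block, the count was 2 for HK2 shYY1 against shNC, 0 for HK2 Dsh against shKDM5C and 0 for the line difference of the KDM5C effect, and the other counts moved by less than 1.5 times. DIABLO and CASP9, at 48 to 311 counts per library, are the least deeply counted of the 8, and differences inside their intervals were not detectable at this depth.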
